A study of Homo sapiens with 4 samples.

Results

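The receptors of the epidermal growth factor receptor (EGFR) family and their ligands were examined in RNA-seq counts from OVCAR5 cells in which the transcription factor FOXK2 had been targeted. The 10 genes were taken by symbol from the 56655 symbols in the count tables: the receptors EGFR, ERBB2 and ERBB3, and the ligands AREG, EREG, HBEGF, TGFA, BTC, EPGN and NRG1. OVCAR5 is an established ovarian cancer cell line, labelled as high grade serous with ascites as its source, and it was grown in RPMI medium with serum and used at passages 4 to 6. All cells had been stably transduced with a lentiviral hairpin vector, which carried either a non-targeting hairpin (shCtrl, n = 2 libraries) or a hairpin against FOXK2 (shFOXK2, n = 2 libraries). The comparison therefore rests on 1 cell line and 1 FOXK2 hairpin, and no label ties the libraries of a group to separate transductions, so that p-values measure the spread between these libraries only.

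EGFR family receptors are tyrosine kinases that pair with each other when a ligand binds. ERBB2 has no known ligand of its own and acts as a preferred partner, and ERBB3 has a weak kinase and signals through its partner. AREG, TGFA, EGF and EPGN bind EGFR, while EREG, HBEGF and BTC bind both EGFR and ERBB4, and the neuregulins bind ERBB3 or ERBB4. The ligands are made as membrane-anchored precursors that proteases cut free, and activated receptors feed the RAS to ERK and PI3K to AKT pathways, which act on growth and survival in ovarian and other epithelia.

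Library totals ran from 14284005 to 21950873 counts. Levels are given in CPM (counts per 1000000 of the library, scaled by TMM), and the detection floor of 3 counts was worth 0.134 to 0.211 CPM. Between the groups, 7940 of 16417 tested genes (48.4%) passed an adjusted p-value of 0.05, 25.7% with a higher and 22.7% with a lower level in shFOXK2 cells, and the groups did not overlap for 75.4% of genes. Adjusted p-values here are from the 2-sided quasi-likelihood F test of edgeR adjusted by Benjamini-Hochberg over the tested genes. The targeted gene FOXK2 had 1796 and 1499 counts in the shCtrl libraries against 1086 and 1084 in the shFOXK2 libraries. In CPM this was 80.5 and 93.4 against 76.3 and 59.6. With the log2 fold change of FOXK2 at -0.36 (SE 0.25; adjusted p = 0.257), the difference did not pass the test. The paper reported lower FOXK2 mRNA by qRT-PCR and lower protein by Western blot in OVCAR5 cells with its FOXK2 hairpins. All 5 epithelial markers were detected in all 4 libraries, with summed levels of 3593 and 4785 CPM in shCtrl against 3436 and 4645 CPM in shFOXK2, although CDH1, the epithelial cadherin, went from 459 and 260 counts to 13 and 24. Of the serous ovarian markers, PAX8 was lower (351 and 335 counts against 156 and 162; adjusted p = 0.0263), MSLN was higher (75 and 52 counts against 112 and 116; adjusted p = 0.0151), WT1 was at 0 to 2 counts, and MUC16, which encodes CA125, went from 397 and 145 counts to 0 and 8. Markers of other cell types had lower sums in shFOXK2 libraries, with summed endothelial markers at 10.6 and 7.72 CPM against 0.633 and 2.03, summed leukocyte markers at 7.22 and 8.10 CPM against 0.633 and 1.26, and summed fibroblast markers at 20.4 and 19.1 CPM against 16.2 and 13.5. Of these, 2 of 4 endothelial, 1 of 5 leukocyte and 2 of 6 fibroblast markers could be tested, and 2, 1 and 1 were lower. The leukocyte sum in the shCtrl libraries came from ITGAM alone, at 7.22 and 8.10 CPM. COL1A1, the largest part of the fibroblast sum, did not pass (log2 fold change 0.03; adjusted p = 0.951). The defining leukocyte marker PTPRC was at 0 to 3 counts, and CDH5, an endothelial cadherin, had 76 and 33 counts in shCtrl and 0 in both shFOXK2 libraries. The part of these markers in the results below was not tested.

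In the shFOXK2 cells all 3 receptors were lower, and the ligands split, with AREG higher, HBEGF lower and the others not past the test. Of the 10 genes, 8 had enough counts to be tested and 5 of the 8 (62.5%) passed, beside 48.4% of all tested genes. Of these, 4 were lower (against 22.7% of all tested genes) and 1 was higher (against 25.7%). The groups did not overlap for any of the 8, and this held for 75.4% of all tested genes. The median log2 fold change of the 8 was -0.77, and that of all tested genes was 0.04. With 2 libraries in each group a 2-sided exact permutation test cannot give a p below 0.333, so each p-value rests on the spread shared between genes in the fit.

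**Figure D1:**
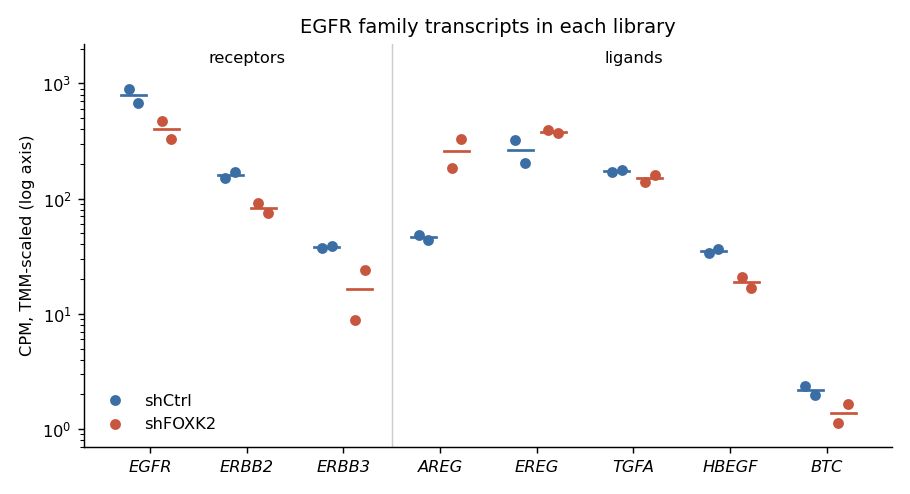
Level of each of the 8 tested genes in each library, in CPM on a log axis, with a point per library and a bar at the mean of the 2 libraries of a group. AREG lies higher in both shFOXK2 libraries (184 and 332 CPM) than in both shCtrl libraries (48.6 and 44.1 CPM), and EGFR, ERBB2, ERBB3 and HBEGF lie lower. EPGN and NRG1, at 0 counts in both shCtrl libraries, are not drawn.

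EGFR, the receptor of most of these ligands, was lower in both shFOXK2 libraries. It had 20004 and 10940 counts in the shCtrl libraries against 6727 and 5998 in the shFOXK2 libraries, or 897 and 681 CPM against 473 and 329.5 CPM. Neither shFOXK2 library reached the lower shCtrl library, and the shCtrl libraries differed from each other by more than the other members' did, except for EREG. The mean was 789 ± 152 CPM in shCtrl and 401 ± 101 CPM in shFOXK2 (SD, n = 2), a 1.97-fold lower level with a log2 fold change of -0.98 (SE 0.26; edgeR adjusted p = 0.00753). The value without shFOXK2 replicate 2 was -0.78 (adjusted p = 0.0584). From a bulk library, fewer cells that express a gene and less of its RNA in each cell cannot be told apart. EGFR-AS1, an RNA of the opposite strand within the EGFR gene, had 7 and 5 counts in shCtrl against 12 and 16 in shFOXK2. The strand setting of the counting was not stated, so reads of the pair may not be separated.

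ERBB2, the partner receptor without a ligand, showed the same direction with a narrower spread. Its level was 150.2 and 170.4 CPM in the shCtrl libraries against 90.9 and 74.4 CPM in the shFOXK2 libraries, with no overlap. The mean of 160.3 ± 14.3 CPM in shCtrl was 1.94-fold above that of 82.7 ± 11.6 CPM in shFOXK2 (SD, n = 2), with a log2 fold change of -0.96 (SE 0.24; edgeR adjusted p = 0.00499), and the call held whichever library was left out. Part of ERBB2 overlaps MIEN1 and PGAP3 on the opposite strand and the microRNA gene MIR4728 on its own strand, so its counts carry the same uncertainty about strand. PGAP3 was also lower (log2 fold change -0.79; edgeR adjusted p = 0.031), but not with an offset for the A content of transcripts (adjusted p = 0.0792). MIEN1 did not pass (-0.52; adjusted p = 0.121).

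ERBB3, the receptor with the weak kinase, was lower in both shFOXK2 libraries, but these libraries differed from each other. It had 832 and 617 counts in shCtrl against 127 and 434 counts in shFOXK2, or 37.3 and 38.4 CPM against 8.93 and 23.8 CPM. The shCtrl libraries were close to each other, while shFOXK2 replicate 1 lay well below replicate 2. The log2 fold change was -1.20 (SE 0.37; edgeR adjusted p = 0.0164), from 37.9 ± 0.807 to 16.4 ± 10.5 CPM (SD, n = 2). Without shFOXK2 replicate 1 it was -0.67 with an adjusted p of 0.149, and without shFOXK2 replicate 2 it was -2.12. The call was also lost with scaling by library size alone (adjusted p = 0.0571) and with an offset for either the A or the GC content of transcripts (adjusted p = 0.0586 for both). ERBB4, the family's other receptor, is no member here and was near the floor, with 15 and 11 counts in shCtrl against 3 and 9 in shFOXK2 (log2 fold change -0.88, SE 0.57; edgeR adjusted p = 0.216).

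AREG, which encodes amphiregulin, was the ligand that rose. It had 1084 and 708 counts in the shCtrl libraries against 2611 and 6038 in the shFOXK2 libraries. In CPM this was 48.6 and 44.1 against 184 and 332, so that the lower shFOXK2 library was well above both shCtrl libraries while the shFOXK2 libraries also differed from each other. The mean went from 46.3 ± 3.17 to 258 ± 105 CPM (SD, n = 2), which was 5.56-fold higher, with a log2 fold change of 2.47 (SE 0.30; edgeR adjusted p = 3.21e-05). Of all tested genes, 7.47% had a higher log2 fold change. The log2 fold change lay between 1.83 and 2.53 in the 11 alternative fits and between 1.95 and 2.84 when each library was left out, and it passed the test in all of these.

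HBEGF, the heparin-binding ligand, moved the other way. It had 748 and 589 counts in shCtrl against 300 and 306 in shFOXK2, or 33.5 and 36.7 CPM against 21.1 and 16.8 CPM. The groups did not overlap. The log2 fold change was -0.89 (SE 0.27; edgeR adjusted p = 0.014), a 1.85-fold lower level, and without shFOXK2 replicate 2 the adjusted p was 0.101.

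The other tested ligands did not pass. EREG, which encodes epiregulin, had 7226 and 3271 counts in shCtrl against 5610 and 6695 in shFOXK2, or 324 and 204 CPM against 394 and 368 CPM. The shCtrl libraries differed from each other more than the shFOXK2 libraries did, and the log2 fold change was 0.53 (SE 0.26; edgeR adjusted p = 0.106). Its sign changed in fits with an offset for base composition, and the reason was not tested. With an offset for the A content of transcripts the log2 fold change was -0.07 (adjusted p = 0.759), and with one for GC content it was -0.46 (adjusted p = 0.0499). The EREG transcript is 30.9% A, and 1812 tested genes within 1 percentage point of it had a median log2 fold change of 0.47. AREG is alike in A content, at 30.6%, but not in GC content (45.3% against 36.1% for EREG), and 1881 genes within 1 point of it had a median of 0.41.

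TGFA, a ligand of EGFR, stood at 170.4 and 176 CPM in shCtrl against 139 and 161 CPM in shFOXK2. The shFOXK2 libraries lay a little below the shCtrl libraries, with a log2 fold change of -0.21 (SE 0.23; edgeR adjusted p = 0.478), which passed in none of the fits run. BTC, or betacellulin, was rare, with 53 and 32 counts in shCtrl against 16 and 30 in shFOXK2 (log2 fold change -0.65, SE 0.41; edgeR adjusted p = 0.205). BTC passed only with the composition offsets among the alternative fits, at -1.16 (adjusted p = 0.0292) with the A-content and -1.34 (adjusted p = 0.015) with the GC-content offset, and likewise with each offset and the replicate block.

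EPGN and NRG1 were counted only in shFOXK2 libraries and did not reach the filter for testing. EPGN, which encodes epigen, had 2 and 5 counts in shFOXK2 and 0 in both shCtrl libraries. NRG1, the neuregulin that binds ERBB3, had 1 and 2 counts in shFOXK2 and 0 in both shCtrl libraries. More genes in all had counts in the shFOXK2 libraries (26780 and 30717) than in the shCtrl libraries (25682 and 23724). Only the 5 counts of EPGN lay above the floor of 3 counts, so a difference was not detectable at this depth for NRG1 and rests on few reads for EPGN. Intervals and floors of this kind cover counting error only.

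**Figure D2:**
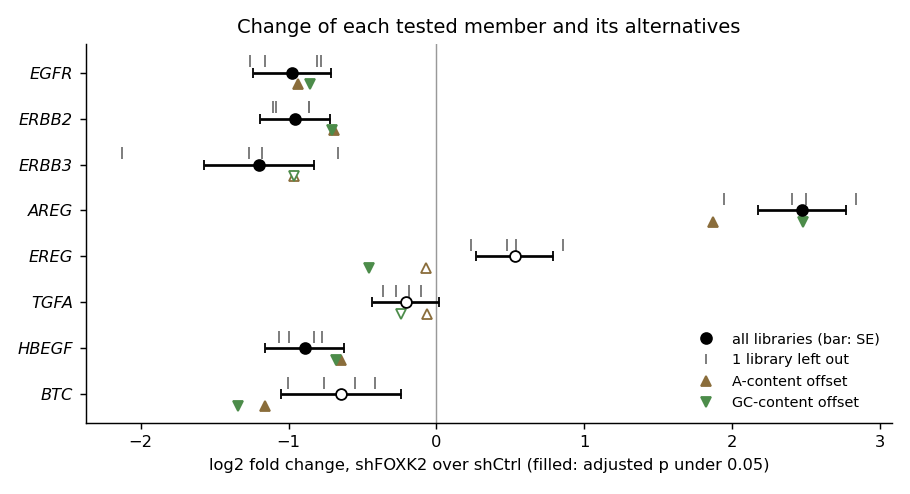
Log2 fold change of shFOXK2 over shCtrl for the 8 tested genes in the edgeR fit with TMM scaling (bars show ± 1 SE). Values with the A-content offset, with the GC-content offset and with each library left out are drawn beside it. Filled circles and triangles passed an adjusted p of 0.05 and open ones did not, and the vertical line is at 0. AREG stays between 1.87 and 2.84 in the fits drawn, whereas EREG lies on both sides of 0.

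Family genes outside the 10 had low to moderate counts. EGF, the founding ligand, had 460 and 249 counts in shCtrl against 104 and 236 in shFOXK2 (log2 fold change -0.83, SE 0.33; edgeR adjusted p = 0.0529), and it passed in 8 of 11 alternative fits and in 2 of 4 fits with a library left out. NRG2 had 236 and 191 counts against 171 and 213 (0.08, SE 0.29; adjusted p = 0.845), and NRG3 had 0 and 0 counts against 3 and 1 and was not tested. NRG4, a ligand of ERBB4, was higher, with 19 and 9 counts in shCtrl against 24 and 83 in shFOXK2 (log2 fold change 2.13, SE 0.52; edgeR adjusted p = 0.00415). Its call was lost without shFOXK2 replicate 2 (1.18; adjusted p = 0.0636) and with the GC-content offset (1.31; adjusted p = 0.0551).

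Divided by the length of the canonical transcript, the counts allow levels to be set side by side between genes. In CPM per kb, EGFR stood at 90.5 and 68.8 in the shCtrl libraries against 47.7 and 33.3 in the shFOXK2 libraries, above ERBB2 at 33.0 and 37.4 against 19.9 and 16.3, and ERBB3 at 6.64 and 6.85 against 1.59 and 4.25. The order of the 3 receptors was thus the same in every library, and EGFR took 69.6% and 60.9% of the summed receptor level in shCtrl and 68.9% and 61.8% in shFOXK2. Among the ligands in shCtrl cells, EREG came first at 70.2 and 44.2 CPM per kb, then TGFA at 41.4 and 42.7 and AREG at 39.4 and 35.7, whose values were close together, then HBEGF at 14.2 and 15.6. In shFOXK2 cells AREG came first at 149 and 269 CPM per kb, then EREG at 85.5 and 79.7, TGFA at 33.7 and 39.2 and HBEGF at 8.94 and 7.13. BTC was below 1 CPM per kb in every library.

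AREG and the receptors moved in opposite directions, and the make-up of the family's RNA differed between the groups. The share of AREG in the summed level of the 7 ligands was 23.7% and 25.7% in the shCtrl libraries against 53.6% and 68.0% in the shFOXK2 libraries. The share of TGFA went from 24.9% and 30.7% to 12.1% and 9.91%, and that of HBEGF from 8.56% and 11.2% to 3.23% and 1.80%. EREG held 42.3% and 31.8% in shCtrl and 30.8% and 20.2% in shFOXK2. The levels of EREG and TGFA themselves did not pass the test, and a share also falls when another ligand rises. Summed over genes, receptors stood at 130.1 and 113 CPM per kb in shCtrl against 69.3 and 53.8 in shFOXK2, and ligands at 166 and 139 against 277 and 396. The ratio of ligand to receptor RNA was 1.28 and 1.23 in shCtrl against 4.00 and 7.35 in shFOXK2, and that of AREG to EGFR was 0.435 and 0.52 in shCtrl against 3.12 and 8.08 in shFOXK2. These sums and ratios depend on the transcript lengths used and were not tested.

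**Figure D3:**
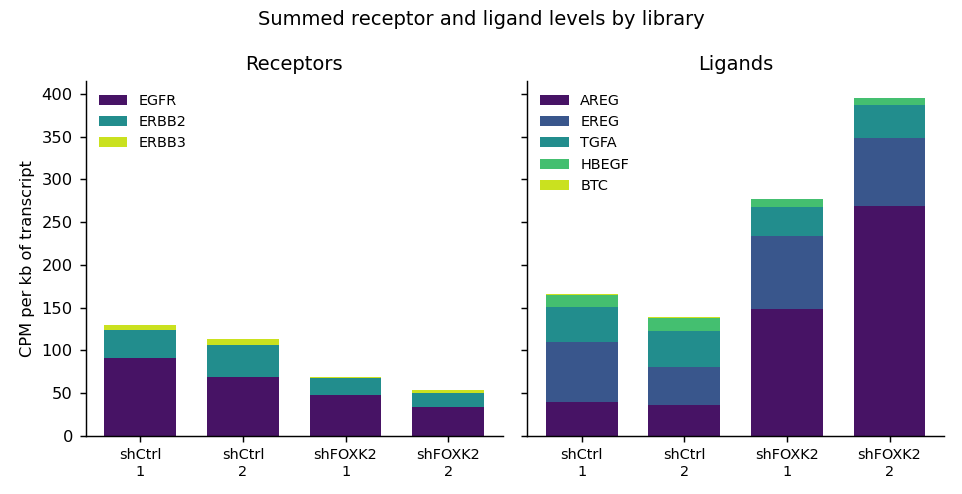
Levels per kb of canonical transcript in each of the 4 libraries, stacked by gene, for the receptors and for the ligands (CPM per kb, axes from 0). The receptor stack is lower in the shFOXK2 libraries (69.3 and 53.8) than in the shCtrl libraries (130.1 and 113), and the ligand stack is taller (277 and 396 against 166 and 139), with AREG as its largest part. BTC is barely visible at this scale, and EPGN and NRG1 are not visible.

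The ligand genes EPGN, EREG, AREG and BTC lie together on the long arm of chromosome 4. In build hg38, EPGN is at chr4:74308470-74316789, EREG at chr4:74365145-74388749 and AREG at chr4:74445136-74455005, all on the plus strand, and BTC is at chr4:74744759-74794523 on the minus strand. Start sites of EPGN and EREG lie 136.7 kb and 79.99 kb before that of AREG, and that of BTC lies 349.4 kb after it. These neighbours differed in their values, with AREG higher, EREG and BTC not past the test, and EPGN almost uncounted. Their promoters are shown to compare the stretches from which these neighbours are transcribed. Each holds the 250 bases before the RefSeq start site (GRCh38.p14), 5′ to 3′ on the gene's strand, at chr4:74308220-74308469 for EPGN, chr4:74364895-74365144 for EREG, chr4:74444886-74445135 for AREG and chr4:74794524-74794773 for BTC. Capitals mark exact matches to the searched motifs:
EPGN: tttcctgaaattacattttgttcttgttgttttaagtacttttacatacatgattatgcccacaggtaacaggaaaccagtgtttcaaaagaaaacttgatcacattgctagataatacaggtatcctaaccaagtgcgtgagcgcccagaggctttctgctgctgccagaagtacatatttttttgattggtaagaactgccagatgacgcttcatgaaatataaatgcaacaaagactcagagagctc
EREG: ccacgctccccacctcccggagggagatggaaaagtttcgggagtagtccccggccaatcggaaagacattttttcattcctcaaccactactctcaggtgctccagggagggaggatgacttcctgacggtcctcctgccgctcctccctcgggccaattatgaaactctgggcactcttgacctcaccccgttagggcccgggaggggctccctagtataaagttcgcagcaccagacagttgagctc
AREG: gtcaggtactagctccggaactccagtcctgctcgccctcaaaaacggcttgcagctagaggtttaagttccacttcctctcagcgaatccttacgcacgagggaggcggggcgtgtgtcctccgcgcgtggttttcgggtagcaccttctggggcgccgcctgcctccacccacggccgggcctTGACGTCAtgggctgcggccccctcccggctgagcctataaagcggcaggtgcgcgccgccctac
BTC: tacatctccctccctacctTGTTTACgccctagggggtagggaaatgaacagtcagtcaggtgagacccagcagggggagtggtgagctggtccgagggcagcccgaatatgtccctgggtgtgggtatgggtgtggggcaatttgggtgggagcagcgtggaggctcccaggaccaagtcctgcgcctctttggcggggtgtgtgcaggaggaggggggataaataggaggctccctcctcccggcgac

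The motifs, searched on both strands, were TGTTTAC for FOXK factors, TGANTCA (N is any base) for AP-1 and TGACGTC, the core of the cyclic AMP response element (CRE). No motif overlaps another in these promoters, apart from the CRE, which matches itself on both strands. The AREG promoter holds a CRE match on each strand, at 65 and 64 bases before the start site, whereas 3.43% of 34943 distinct promoter windows (250 bases before to 50 after the start) hold a CRE match. The BTC promoter holds a FOXK match at 231 bases before the start, as 3.42% of windows hold at least 1. No match to the 3 motifs lies in the EREG and EPGN windows. Elsewhere in the family, AP-1 matches, found in 7.72% of windows, lie before the ERBB2 start and before the second of 2 EGFR starts. The ERBB2 match is TGATTCA, at 222 bases. The EGFR matches are TGAGTCA at 232 bases and TGACTCA at 136 bases. None of the motifs lies in the HBEGF and TGFA windows. A match of letters is a description of the sequence and not a measured binding site.

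Several genes around the ligand cluster were lower by far more than any member was. Of 8 tested neighbours that start within 500 kb of EPGN, EREG, AREG or BTC, 5 were lower, 1 was higher and 2 did not pass, with a median log2 fold change of -5.58. Among all tested genes 22.7% were lower and 25.7% higher. CXCL6, a neutrophil-attracting chemokine, went from 1482 and 1056 counts in shCtrl to 2 and 0 in shFOXK2, and CXCL5, of the same family, from 541 and 364 to 0 and 1. The other 3 that were lower, which like MTHFD2L were chosen here after their values were seen, were the chemokine genes CXCL1 (3322 and 2543 counts against 19 and 8), CXCL2 (1504 and 947 against 27 and 20) and CXCL3 (727 and 516 against 12 and 7). MTHFD2L, a mitochondrial folate enzyme gene between the chemokines and EPGN, was the neighbour that was higher, with 106 and 60 counts against 108 and 187 (log2 fold change 1.07; edgeR adjusted p = 0.0176), but with the A-content offset it was at -0.37 (adjusted p = 0.282) and with the GC-content offset at 0.14 (adjusted p = 0.692). It also lost its call without shCtrl replicate 2 (adjusted p = 0.102) and without shFOXK2 replicate 2 (adjusted p = 0.0804). The start sites of these 5 chemokine genes lie from -345.9 kb (CXCL2) to -608.5 kb (CXCL6) of that of AREG. MTHFD2L, EPGN and EREG start between them and AREG.

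**Figure D4:**
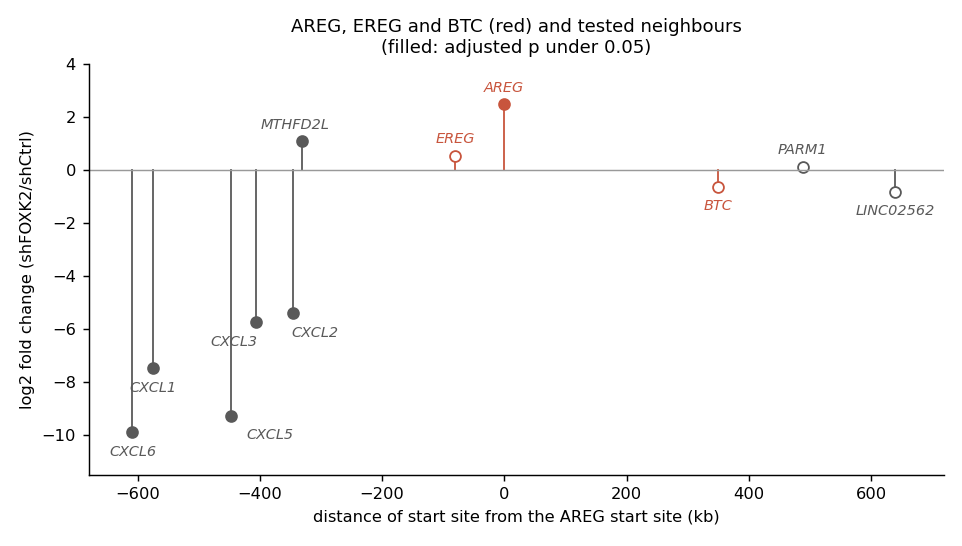
Log2 fold change (shFOXK2 over shCtrl) of AREG, EREG and BTC (red) and of the 8 tested neighbours (grey), by the distance of their start sites from that of AREG in kb. Filled points passed an adjusted p of 0.05. The 5 CXCL genes lie between -9.90 and -5.42, while AREG lies at 2.47. Fitted values of CXCL5 and CXCL6, which are at 0 to 2 counts in shFOXK2, depend on the prior count of the fit.

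Around EGFR, ERBB2, ERBB3, HBEGF and TGFA the neighbours' median log2 fold changes lay between -0.43 and 0.50, and those of NRG1 were not analysed here. The counts below stand beside 25.7% higher and 22.7% lower among all tested genes. Within 500 kb of the HBEGF start (chr5:140332843-140346603, minus strand), 5 of 20 tested genes were higher and 3 lower (median log2 fold change 0.10), and near TGFA (chr2:70447284-70554193, minus strand) 3 of 11 were higher and 3 lower (median 0.50). Near ERBB3 (chr12:56076799-56103505, plus strand) 5 of 38 were higher and 9 lower (median -0.33). Near ERBB2 (chr17:39687914-39730426, plus strand) 2 of 21 were higher and 6 lower (median -0.31), and CSF3, a granulocyte growth factor gene, had 74 and 46 counts in shCtrl against 0 and 1 in shFOXK2. Near EGFR (chr7:55019017-55211628, plus strand) EGFR-AS1 was the 1 of 3 tested genes that passed (log2 fold change 1.44; edgeR adjusted p = 0.0354), and it did not pass with DESeq2 (adjusted p = 0.256) or when any library was left out (adjusted p from 0.0787 to 0.145).

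Genes that act on these receptors and ligands, or carry their signal, were taken as 5 lists by role. Of their 51 genes 50 were tested, and 4 were higher and 15 lower, or 38.0% called beside 48.4% of all tested genes. Their median log2 fold change was -0.35. By list, 37.5% of shedding, 30.8% of adaptor and PI3K and 30.0% of RAS to ERK genes were called, below the same 48.4%. Of the brakes and turnover genes 53.8% were called.

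The shedding list, of genes that act on the release of ligands from the membrane in either direction, held 3 lower and 0 higher genes among 8 tested. Its median log2 fold change was -0.53. ADAM17, the main protease that sheds AREG, EREG, HBEGF and TGFA, had 123 and 89.2 CPM in shCtrl against 28.6 and 22.0 CPM in shFOXK2, a log2 fold change of -2.07 (SE 0.28; edgeR adjusted p = 6.97e-05). RHBDF2, also called iRhom2, which brings ADAM17 to the cell surface, had 135 and 142 CPM against 47.2 and 36.0 CPM, a log2 fold change of -1.73 (SE 0.25; edgeR adjusted p = 0.000128). Neither gene's groups overlapped, which held for 75.4% of all tested genes. AREG RNA was thus higher in the same libraries in which RNA of its protease was lower. ADAM9, another metalloprotease, was also lower (log2 fold change -0.89; adjusted p = 0.023), with 1237 and 642 CPM in shCtrl against 498 and 516 CPM, but its call was lost without shCtrl replicate 1 (-0.38; adjusted p = 0.26) and with library size scaling (adjusted p = 0.0599).

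Among 13 tested genes for adaptors and PI3K subunits, 4 were lower and 0 higher (median log2 fold change -0.41), and PIK3R2 was not tested. SHC1, the adaptor that binds activated receptors and recruits GRB2, had 402 and 467 CPM in shCtrl against 191 and 172 CPM in shFOXK2 (log2 fold change -1.26; edgeR adjusted p = 0.000665). GAB2, a docking protein (-1.19; adjusted p = 0.00401), PLCG1, a phospholipase (-1.16; adjusted p = 0.0018), and PIK3CB, a PI3K catalytic subunit (-0.81; adjusted p = 0.0269), were lower as well. PIK3CB lost its call without shCtrl replicate 1 (adjusted p = 0.135), without shFOXK2 replicate 1 (adjusted p = 0.133) and with library size scaling (adjusted p = 0.0536).

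In the RAS to ERK list 1 gene was higher and 2 were lower among 10 tested (median -0.12). HRAS was higher at 45.7 and 64.4 CPM in shCtrl against 119 and 118 CPM in shFOXK2 (log2 fold change 1.10; edgeR adjusted p = 0.00312). MAPK3, an ERK kinase gene, was lower (-0.69; adjusted p = 0.0392). MAPK3 passed in 4 of 11 alternative fits and lost its call without shCtrl replicate 2 (-0.47; adjusted p = 0.184), without shFOXK2 replicate 1 (adjusted p = 0.193) and with the A-content offset (-0.40; adjusted p = 0.119). In the AKT list of 6 tested genes the median was -0.42. MTOR, a kinase downstream of AKT, was lower (-0.75; adjusted p = 0.0191), but it did not pass without shFOXK2 replicate 2 (adjusted p = 0.121).

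The list of brakes and turnover genes moved both ways, with 2 higher and 5 lower among 13 tested and a median log2 fold change of 0.05. LRIG1, a membrane protein that lowers EGFR family receptors, had 65.0 and 57.6 CPM in shCtrl against 12.2 and 14.6 CPM in shFOXK2 (log2 fold change -2.19, SE 0.27; edgeR adjusted p = 3.8e-05). CBLB, a ubiquitin ligase of activated receptors, had 31.3 and 31.5 CPM against 5.20 and 11.4 CPM (-1.91, SE 0.35; adjusted p = 0.000651). USP8, a deubiquitinase that acts on internalised EGFR, had 39.2 and 20.4 CPM in shCtrl against 129 and 153 CPM in shFOXK2, and so rose by 2.24 on the log2 scale (SE 0.31; adjusted p = 9.32e-05), but by 0.70 (adjusted p = 0.0159) with the A-content offset. SOCS4, which promotes EGFR degradation, was higher on average (1.31; adjusted p = 0.0281), but its shCtrl libraries stood far apart at 521 and 95 counts, and it was at 0.64 (adjusted p = 0.0983) without shCtrl replicate 2 and at 0.52 (adjusted p = 0.273) with the A-content offset. The other 3 lower genes were CBL, PTPN1 and RNF41, named after their values were seen. RNF41 was close to the threshold (-0.66; adjusted p = 0.0493) and passed in only 6 of 11 alternative fits. Its log2 fold change lay between -0.87 and -0.51 when each library was left out.

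**Figure D5:**
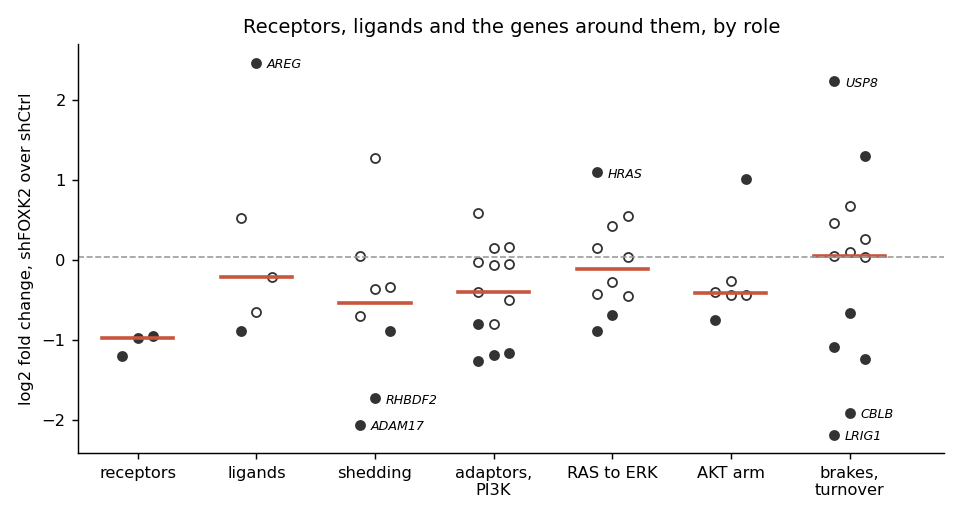
Log2 fold change (shFOXK2 over shCtrl) of each tested receptor, ligand and pathway gene, grouped by role, with filled points for an adjusted p under 0.05. Red lines are group medians (-0.98 for receptors, -0.21 for ligands), and the dashed line is the median of all tested genes, 0.04. AREG and USP8 stand at the top, and LRIG1 and ADAM17 at the bottom.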

How the data were processed

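RNA-seq libraries of OVCAR5 cells, 2 shCtrl and 2 shFOXK2, were grouped by their titles. The authors isolated polyadenylated RNA, made libraries with the NEBNext Ultra II kit, aligned reads with STAR 2.5.2 to GRCh38 and counted them with HTSeq, per the paper's methods and the submitters' processing notes. The deposited counts per gene symbol are raw, and the annotation and strand setting are not given in the sources used here. Counts were filtered with filterByExpr, scaled by TMM and tested in edgeR 4.0.16 (R 4.3.3) by the quasi-likelihood F test, adjusted over 16417 genes. The SE was obtained from the log2 fold change and its F statistic.

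Alternatives were DESeq2 1.42.0, DESeq2 size factors, library size scaling, no filter, at least 10 counts in every library, offsets for A or GC content (lowess, span 0.2), the replicate number as a block with and without an offset, and leaving out each library. A block with crossed numbers was added after seeing the data. Of 56655 symbols 37217 (65.7%) matched GENCODE v44, which gave lengths and composition for 88.4% of tested and 85.5% of called genes. Promoters came from RefSeq, where 8 of the 10 genes had one (not ERBB3 and NRG1). The code of the fit was also run on simulated counts, in which far fewer genes changed than were called here. That run therefore does not measure the error of the calls in these data.

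Genes named were the members, FOXK2, family genes, up to 4 called genes per pathway list with the largest log2 fold change, and at most 2 called neighbours per locus. Results of some genes of the RAS to ERK and AKT lists are not reported here. The members and lists were chosen with earlier results of these data known.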

Additional observations from a re-analysis of the deposited data

How the results depend on the processing

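Of the 8 tested members, 5 were called, and the 11 alternative fits called between 4 (library size scaling) and 6. Leaving out each library gave between 3 and 6 calls, with 3 without shFOXK2 replicate 2, where EGFR and HBEGF lost theirs. EREG reversed with the A-content offset (log2 fold change -0.0698, adjusted p = 0.759), the GC-content offset (-0.46, adjusted p = 0.0499), and each of these with the replicate block (-0.0729, adjusted p = 0.801, and -0.46, adjusted p = 0.0576). It passed without shCtrl replicate 1 (0.86, adjusted p = 0.0168) and with crossed numbers (0.57, adjusted p = 0.0498). The cause was not tested. Among single-gene values in the alternative fits, 87 kept direction and side of the threshold, 5 were stronger and 3 weaker.

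Same-numbered libraries showed a correlation of deviations of -0.113 over 16417 genes, and no label says what a number shares. With the replicate block 5 members, 17 pathway genes and 7270 genes in all were called, against 5, 19 and 7940 without it, and MAPK3 (adjusted p = 0.0836) and RNF41 (adjusted p = 0.0972) were the pathway genes that lost their call. The crossed replicate block called 6 members and 8350 genes. Pathway calls ranged from 14 to 25 in the alternative fits and from 16 to 23 with a library left out, and without shCtrl replicate 1 they were 10 higher and 13 lower against 4 and 15. All-gene calls ranged from 6008 to 9207, and from 6704 to 7473 with a library left out. The median log2 fold change of all genes was -0.0023 with the A-content and 0.0072 with the GC-content offset, against 0.04 without, while the median change per gene was 0.15 and 0.11. EPGN and NRG1 had too few counts for a test.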
